A study of Mus musculus with 8 samples.

Results

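Proximal noncoding peaks are the BMAL1 ChIP-seq peaks whose centre lay more than 1 kb and at most 10 kb from the nearest transcription start site and in no annotated exon. They therefore sat in introns or between genes, close to a promoter but outside it. Start sites were those of the 45756 curated RefSeq transcripts of GRCm38, which have 31601 distinct start positions and belong to 26180 genes. The rule used position alone and no measured value. It found 31416 of the 211109 peaks in the 4 lists. They were 835 of 6534 peaks in UNDIFF6, 603 of 5475 in UNDIFF8, 1881 of 13683 in DIFF1 and 28097 of 185417 in DIFF2. Of the remaining peaks, 2311 lay within 1 kb of a start site, 176800 lay beyond 10 kb and 581 lay 1 to 10 kb away but in an exon.

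The lists came from HC11, an established line of mouse mammary epithelial cells that can be driven to make milk proteins by lactogenic hormones. All 4 lists thus represent 1 line, in 2 states with 2 ChIP experiments each. The p-values measure the spread between these 4 experiments. Undifferentiated cultures (UNDIFF6 and UNDIFF8) were taken after confluent cells had spent 48 h without epidermal growth factor, in 10% serum with insulin. Differentiated cultures (DIFF1 and DIFF2) went through the same 48 h and then had 96 h of 0.1 µM dexamethasone, 5 µg/mL insulin and 5 µg/mL prolactin with 10% serum. Every culture was fixed with 1% formaldehyde, immunoprecipitated with a BMAL1 antibody and compared with its own input DNA. The comparison asks whether BMAL1 occupied other places once the cells had differentiated. Peak lists carry no expression values, so the cell type label could not be checked against marker genes.

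BMAL1 is a basic helix-loop-helix transcription factor at the core of the circadian clock. It pairs with CLOCK (or NPAS2) and binds the E-box, CACGTG, near genes such as Per1, Per2, Nr1d1 and Dbp, and the PER and CRY proteins then repress that activity, which closes the loop. Regulatory elements that work on a promoter are often found a few kb from it, on either side. In the mammary gland, clock genes are expressed with a daily rhythm and change around the onset of lactation.

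DIFF2 stood apart from the other lists before any comparison was made. It held 185417 peaks, against 5475 to 13683 in the others, at a lowest findPeaks score of 14 rather than 23 or 24, and its peaks were 337 bp wide against 195 to 229 bp. Of its proximal peaks, 84.8% were centred in soft-masked sequence, the lower case letters that mark repeats in the reference genome, against 21.8 to 25.4% in the other 3 lists. Depth, taken as whichever of the ChIP or input totals was lower and worked out from the deposited values, was 35.3 M tags for DIFF2 and 57.5 to 80.3 M tags for the others. DIFF2 is also the library of which only a portion of the reads was used by the authors. Each of the 7 tests below is therefore also given without it.

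The sequences that the comparisons turn on are given on the plus strand of GRCm38, 5′ to 3′. The first set shows sites where proximal peaks of different lists overlapped and each was centred outside soft-masked sequence, with the bases common to both peaks in capitals. Vmn1r30 (a vomeronasal receptor gene), Srgap2 and Mapk14 (the p38α kinase) were shared with DIFF2, and Zfp981 (a zinc finger gene) was shared by the UNDIFF pair.
Vmn1r30, UNDIFF6 peak shared with DIFF2, chr6:58441139-58441333: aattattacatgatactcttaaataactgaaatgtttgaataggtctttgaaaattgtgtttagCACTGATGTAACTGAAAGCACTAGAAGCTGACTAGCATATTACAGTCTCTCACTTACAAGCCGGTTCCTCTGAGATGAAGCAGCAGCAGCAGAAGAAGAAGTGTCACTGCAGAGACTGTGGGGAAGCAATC
Srgap2, DIFF1 peak shared with DIFF2, chr1:131517458-131517672: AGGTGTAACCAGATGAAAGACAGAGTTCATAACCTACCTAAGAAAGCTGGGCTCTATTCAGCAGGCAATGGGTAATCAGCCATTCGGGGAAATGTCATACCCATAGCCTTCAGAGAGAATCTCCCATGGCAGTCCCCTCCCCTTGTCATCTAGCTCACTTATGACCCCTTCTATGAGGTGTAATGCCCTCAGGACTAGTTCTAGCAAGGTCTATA
Zfp981, UNDIFF6 peak shared with UNDIFF8, chr4:146494251-146494445: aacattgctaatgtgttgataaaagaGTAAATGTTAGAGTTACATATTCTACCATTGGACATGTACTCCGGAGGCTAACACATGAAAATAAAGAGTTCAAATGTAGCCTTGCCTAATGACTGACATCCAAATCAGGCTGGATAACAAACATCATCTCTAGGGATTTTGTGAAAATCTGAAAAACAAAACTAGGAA
Mapk14, DIFF1 peak shared with DIFF2, chr17:28697439-28697653: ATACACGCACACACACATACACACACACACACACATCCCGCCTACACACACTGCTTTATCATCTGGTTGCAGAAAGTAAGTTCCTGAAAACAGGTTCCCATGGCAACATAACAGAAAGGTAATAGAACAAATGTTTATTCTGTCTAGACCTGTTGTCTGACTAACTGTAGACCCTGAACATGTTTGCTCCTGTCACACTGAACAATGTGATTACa

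The second set shows proximal peaks that held the E-box, which stands in capitals. They are the peaks of highest fold over input near Gdf6 (a growth and differentiation factor) in UNDIFF6, Slc38a4 (an amino acid transporter) in UNDIFF8, and Cd209c (a C-type lectin) and Golga7 (a Golgi protein) in DIFF1. With them are the E-box peaks near Socs3 and Stat3, which act in the cytokine and prolactin pathway, the Flt1 peak (a receptor for vascular endothelial growth factor) of DIFF2, and a 6820431F20Rik peak whose site was called in 3 lists.
Gdf6, UNDIFF6, chr4:9835234-9835428: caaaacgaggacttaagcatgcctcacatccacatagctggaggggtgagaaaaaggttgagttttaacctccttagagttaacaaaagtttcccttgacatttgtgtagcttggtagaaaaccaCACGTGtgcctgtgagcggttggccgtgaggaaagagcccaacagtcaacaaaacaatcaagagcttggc
Slc38a4, UNDIFF8, chr15:97011528-97011756: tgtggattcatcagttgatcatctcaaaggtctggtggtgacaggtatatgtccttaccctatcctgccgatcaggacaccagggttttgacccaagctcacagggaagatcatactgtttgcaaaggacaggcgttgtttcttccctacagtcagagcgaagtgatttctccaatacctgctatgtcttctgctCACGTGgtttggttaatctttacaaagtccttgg
Cd209c, DIFF1, chr8:3945091-3945305: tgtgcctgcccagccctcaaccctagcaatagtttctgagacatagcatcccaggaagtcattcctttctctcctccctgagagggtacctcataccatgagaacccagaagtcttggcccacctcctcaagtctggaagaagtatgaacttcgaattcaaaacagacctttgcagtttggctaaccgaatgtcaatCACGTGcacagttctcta
Golga7, DIFF1, chr8:23260855-23261069: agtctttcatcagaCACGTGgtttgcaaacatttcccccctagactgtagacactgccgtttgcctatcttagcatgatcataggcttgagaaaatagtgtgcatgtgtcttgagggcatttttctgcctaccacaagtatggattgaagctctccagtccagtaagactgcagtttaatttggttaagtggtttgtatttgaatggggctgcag
Socs3, DIFF1, chr11:117970359-117970573: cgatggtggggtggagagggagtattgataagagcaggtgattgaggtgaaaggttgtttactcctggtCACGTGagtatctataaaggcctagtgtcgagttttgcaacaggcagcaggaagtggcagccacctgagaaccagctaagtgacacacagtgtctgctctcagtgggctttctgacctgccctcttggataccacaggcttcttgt
Stat3, DIFF2, central 300 bases, chr11:100948338-100948637: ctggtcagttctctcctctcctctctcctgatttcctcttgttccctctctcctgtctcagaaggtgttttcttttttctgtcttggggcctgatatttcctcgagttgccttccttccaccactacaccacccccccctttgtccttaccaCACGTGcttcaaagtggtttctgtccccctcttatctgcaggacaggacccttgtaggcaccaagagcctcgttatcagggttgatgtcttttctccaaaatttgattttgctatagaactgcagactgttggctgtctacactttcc
Flt1, DIFF2, central 300 bases, chr5:147719097-147719396: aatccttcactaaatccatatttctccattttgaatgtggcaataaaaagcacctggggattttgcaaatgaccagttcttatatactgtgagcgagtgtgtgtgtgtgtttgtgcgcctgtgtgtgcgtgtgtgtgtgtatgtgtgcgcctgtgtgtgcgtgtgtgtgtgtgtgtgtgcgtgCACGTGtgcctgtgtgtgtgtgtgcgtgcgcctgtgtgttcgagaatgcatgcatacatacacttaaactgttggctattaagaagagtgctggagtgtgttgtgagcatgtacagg
6820431F20Rik, UNDIFF8, chr8:20287777-20288005: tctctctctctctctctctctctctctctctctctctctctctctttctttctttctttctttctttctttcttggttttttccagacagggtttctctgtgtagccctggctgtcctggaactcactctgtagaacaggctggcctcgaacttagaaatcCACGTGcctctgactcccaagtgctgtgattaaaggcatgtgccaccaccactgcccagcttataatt

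The E-box of the Gdf6, Golga7 and Socs3 peaks lay in sequence of mixed composition. In the Flt1 peak it lay inside a long run of alternating t and g, and the 6820431F20Rik peak opened with a run of alternating c and t.

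Proximal noncoding peaks took 12.8% of UNDIFF6 (Wilson 95% interval 12 to 13.6), 11% of UNDIFF8 (10.2 to 11.9), 13.7% of DIFF1 (13.2 to 14.3) and 15.2% of DIFF2 (15 to 15.3). Both DIFF lists were thus above both UNDIFF lists. These intervals cover counting error only. The mean was 11.90% ± 1.25 (SD, n = 2) in UNDIFF and 14.45% ± 0.99 (SD, n = 2) in DIFF, a difference of 2.55 percentage points. The exact two-sided permutation test over the 4 cultures gave p = 0.333, the smallest that 2 against 2 allows, and 0.656 after Benjamini-Hochberg adjustment over the 7 tests made. The design therefore could not pass a threshold of 0.05. Without DIFF2 the difference was 1.85 points.

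Set against the amount of sequence, the lists fell on both sides of an even spread. The rule allowed 366 Mb, or 13.8% of the 2648 Mb of known bases. When each chromosome was weighted by the peaks that a list had on it, the allowed share was 13.7% for UNDIFF6, 13.6% for UNDIFF8, 13.9% for DIFF1 and 14.1% for DIFF2. The intervals of UNDIFF6 and UNDIFF8 lay below this share, the first by a narrow margin, that of DIFF1 included it and that of DIFF2 lay above it. There were 2.28 proximal peaks per Mb in UNDIFF6 against 2.5 other peaks per Mb elsewhere, 1.65 against 2.14 in UNDIFF8, 5.14 against 5.17 in DIFF1 and 76.8 against 68.9 in DIFF2. The density ratio was 0.914, 0.772, 0.994 and 1.11 in these lists, with a mean log2 ratio of -0.089 ± 0.22 (SD over 4 lists). An exact sign-flip permutation test over the 4 lists gave p = 0.625, and such a test over 4 lists cannot pass 0.05. The mean log2 ratio was -0.17 without DIFF2.

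Upstream and downstream peaks were nearly balanced. UNDIFF6 had 403 proximal peaks upstream of the nearest start site and 432 downstream, UNDIFF8 had 295 and 308, DIFF1 had 893 and 988, and DIFF2 had 14162 and 13935. The upstream share was 48.3% (Wilson 95% interval 44.9 to 51.7) in UNDIFF6, 48.9% (45 to 52.9) in UNDIFF8, 47.5% (45.2 to 49.7) in DIFF1 and 50.4% (49.8 to 51) in DIFF2. Upstream sequence made up 47.8% of what the rule allowed, 175 Mb against 191 Mb, which lies inside the interval of every list but DIFF2. The share was 48.59% ± 0.47 (SD, n = 2) in UNDIFF and 48.94% ± 2.07 (SD, n = 2) in DIFF, a difference of 0.35 points with p = 1 in the exact permutation test. This difference turned to -1.12 points without DIFF2.

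Per Mb of allowed sequence, upstream density was 1.02 times the downstream density in UNDIFF6, 1.05 times in UNDIFF8, 0.988 times in DIFF1 and 1.11 times in DIFF2. In DIFF2 that was 81 upstream and 72.9 downstream peaks per Mb. The mean log2 ratio over the lists was 0.057 ± 0.072 (SD, n = 4; exact sign-flip permutation test p = 0.25, adjusted 0.656), and 0.026 without DIFF2. Except in DIFF1, the direction depended on whether the peak centre was soft-masked. Outside soft-masked sequence the upstream to downstream ratio was 1.12 in UNDIFF6, 1.19 in UNDIFF8, 1.01 in DIFF1 and 1.16 in DIFF2. Within soft-masked sequence it was 0.82, 0.769, 1.01 and 0.957 in the same order. In DIFF2 the soft-masked densities were 197 upstream and 205 downstream peaks per Mb, and outside soft-masked sequence they were 18.6 and 16.1. By count, DIFF2 had 12046 soft-masked peaks upstream and 11782 downstream, against 2116 and 2153 outside soft-masked sequence. Its surplus of upstream peaks by count thus lay in soft-masked sequence. Upstream sequence is itself richer in repeats, with 35.1% soft-masked against 30% downstream.

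**Figure D1:**
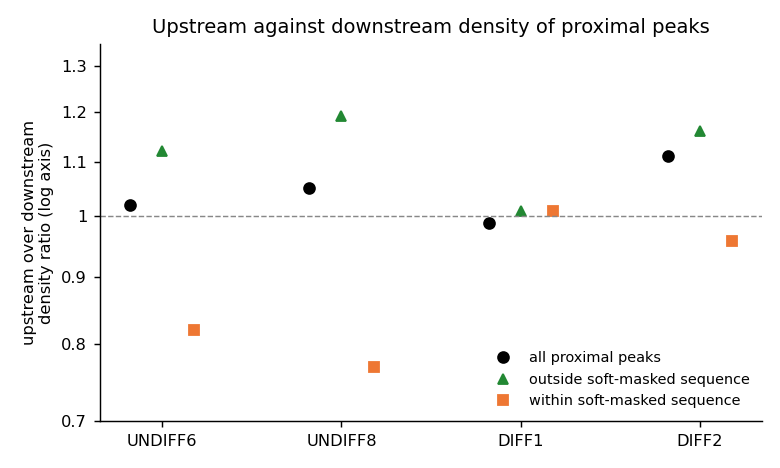
Ratio of upstream to downstream density of proximal noncoding peaks (peaks per Mb of allowed sequence, log axis) in each list, for all proximal peaks (circles), those outside soft-masked sequence (triangles) and those within it (squares), with 1 value per list and the dashed line at equal density. The triangles lie between 1.01 and 1.19 and the squares between 0.769 and 1.01.

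Density in the first kb on either side of the start site was below the mean over the genome in every list. In DIFF2, non-exonic peaks reached 33.5 per Mb in the first kb downstream and 48.8 per Mb in the first kb upstream, against 70 per Mb over the genome. Just inside the range, at 1 to 2 kb, the values were 58.5 downstream and 78 upstream. Downstream density went on rising to 80.4 per Mb at 6 to 7 kb, and upstream it stayed between 78 and 83.3 per Mb from 1 to 10 kb. DIFF1 went from 3.22 per Mb in the first kb downstream to 4.83 at 1 to 2 kb, and UNDIFF8 from 0.508 to 1.41. UNDIFF6 went from 1.47 to 2.05, so the first downstream kb was below the second in every list. Across the outer limit the change was small in DIFF2, from 81.5 to 81.2 per Mb upstream and from 77.7 to 76 downstream.

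**Figure D2:**
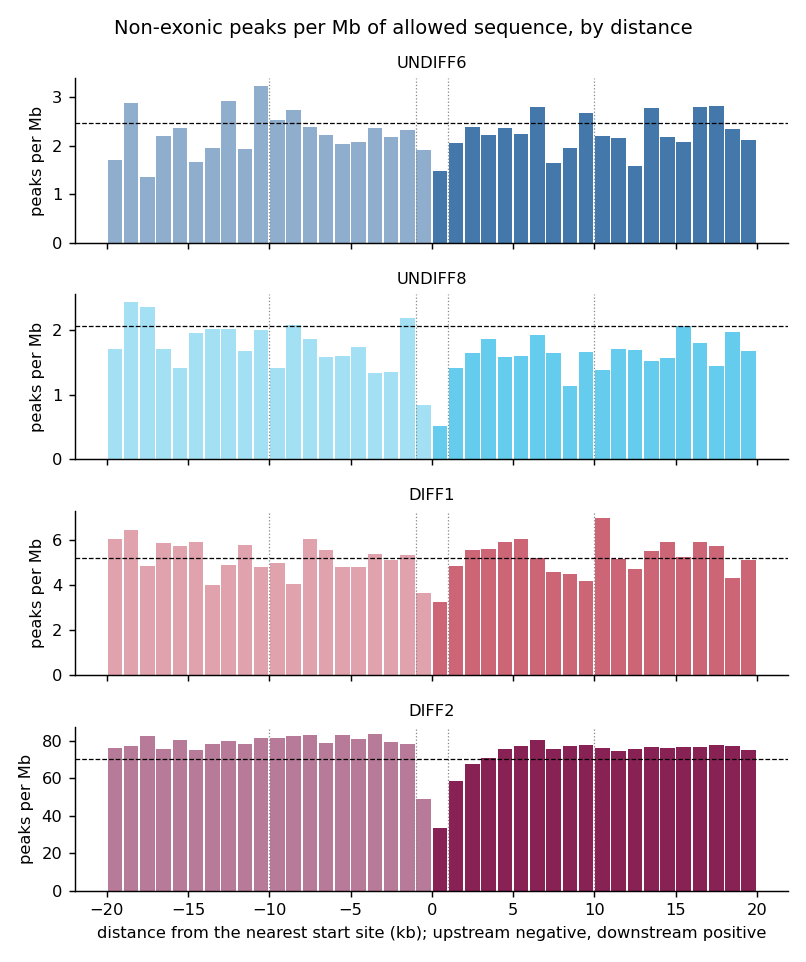
Non-exonic peaks per Mb of sequence in 1 kb steps of distance from the nearest start site (x axis in kb, upstream negative and pale, downstream positive and dark), 1 panel per list. Dotted lines mark 1 and 10 kb and the dashed line the mean over the genome, which was 2.47 per Mb in UNDIFF6, 2.07 in UNDIFF8, 5.17 in DIFF1 and 70 in DIFF2, and the first bar on each side of the start site is below the dashed line in each panel.

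The median fold differed little across either limit in DIFF2, the list with the most peaks there. In DIFF2 the median fold was 4.52 for the 305 peaks at 0.9 to 1 kb and 4.23 for the 283 at 1 to 1.1 kb, and it was 4.54 for 293 peaks at 9.9 to 10 kb and 4.49 for 263 at 10 to 10.1 kb. In DIFF1 the 17 peaks just outside 1 kb had a median of 3.9 and the 23 just inside 3.98. The 11 peaks just inside 10 kb had 5.41 and the 17 just outside 4.11. The UNDIFF lists had 2 to 16 peaks in each of these narrow bands, and UNDIFF8 had medians of 3.45 just inside and 4.19 just outside 10 kb.

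Most proximal peaks downstream of a start site were intronic and most of those upstream were intergenic. In UNDIFF6, 81.9% of downstream peaks lay in an intron of the nearest gene, and the share was 73.7% in UNDIFF8, 77.7% in DIFF1 and 76.7% in DIFF2. Upstream peaks were intergenic in 79.9%, 81.7%, 79.8% and 81.1% of cases in the same order, and 12.5 to 13.3% of them lay in an intron of a different gene. A further 5.76 to 7.2% of upstream peaks lay in an intron of the nearest gene itself, which happens where the gene has an earlier alternative start. The nearest transcript was protein coding for 79.4 to 84.1% of proximal peaks, against 70.2 to 72.7% of the other peaks. Median GC content was 43.6% against 42.6% in UNDIFF6, 46% against 44.2% in DIFF1 and 44.5% against 43.6% in DIFF2, and 42.4% in both sets of UNDIFF8.

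The fold over input of proximal peaks was below that of the other peaks in 3 of 4 lists. The median fold over input was 3.31 in UNDIFF6, with the middle of the list from 2.87 to 4.17 (quartiles), against 3.41 for the other peaks. It was 3.88 (2.92 to 6.21) against 4.23 in UNDIFF8, 4.31 (3.55 to 5.96) against 4.27 in DIFF1 and 4.55 (3.36 to 6.98) against 5.29 in DIFF2. The log2 difference averaged -0.093 ± 0.10 (SD over 4 lists) with p = 0.25 in the exact sign-flip permutation test (adjusted 0.656), and -0.051 without DIFF2. A fold of 10 or more was reached by 1.08% of proximal and 2.47% of other peaks in UNDIFF6, 11.3% and 15.9% in UNDIFF8, 8.45% and 7.46% in DIFF1, and 13.9% and 20.4% in DIFF2. The median proximal peak of UNDIFF6 rested on 22.9 ChIP and 7 input tags, so single folds are coarse. The highest fold among the proximal peaks of UNDIFF8, 55.9, was set by 0.5 input tags, the lowest value its list contains.

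Proximal peaks more often had a high input count. An input above 3 times the median of the list was found in 10 of 835 proximal peaks of UNDIFF6 (1.2%) against 0.228% of its other peaks, and in 2.32% against 1.62% in UNDIFF8, 0.957% against 0.466% in DIFF1 and 2.49% against 1.42% in DIFF2. The median input of proximal and other peaks was 7 and 6.5 tags in UNDIFF6, 6.8 and 6.3 in UNDIFF8, 4 and 4 in DIFF1, and 5.4 and 4.6 in DIFF2.

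The soft-masked share was close to that of the other peaks in each list: 21.8% against 21.3% in UNDIFF6, 25.4% against 26.4% in UNDIFF8, 23.6% against 27.1% in DIFF1 and 84.8% against 86.3% in DIFF2. The allowed sequence was soft-masked at 32.4% of its bases, so 3 lists were below it and DIFF2 was far above it. Between the sides the share differed by a few points at most. Upstream minus downstream it was -1.36 points in UNDIFF6, -3.88 in UNDIFF8, 4.10 in DIFF1 and 0.51 in DIFF2, with a mean of -0.16 ± 3.36 (SD, n = 4; exact sign-flip permutation test p = 1). Leaving out DIFF2 gave -0.38 points.

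The chromosomes held very unequal numbers of proximal peaks, and many of the high and low ones recurred across the lists. Relative to its share of allowed sequence, chromosome 8 held 3.03 times as many in UNDIFF6, 2.74 times in UNDIFF8, 2.17 times in DIFF1 and 1.27 times in DIFF2. Chromosome 6 held 2.3, 2.56, 2.04 and 1.27 times as many, and chromosome 15 held 2.21, 2.38, 1.57 and 1.3 times as many. Chromosome 9 was at 0.128, 0.148, 0.284 and 0.821 of its share and chromosome 7 at 0.13, 0.16, 0.269 and 0.799. In all, 6 chromosomes (1, 5, 6, 8, 15 and 17) were above their share in every list and 9 of 21 (2, 7, 9, 10, 12, 13, 18, X and Y) were below it in every list. Chromosomes 1, 6, 8 and 15, which were picked after their values had been seen, have 19.8% of the allowed sequence. They held 44.8% of proximal peaks in UNDIFF6, 50.1% in UNDIFF8, 37.9% in DIFF1 and 24.7% in DIFF2. The other peaks were on these chromosomes in 53.2%, 57.5%, 43.2% and 30.3% of cases, so the pattern was not limited to the proximal range. Whether the number of copies of each chromosome in this line has a part in it was not tested.

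**Figure D3:**
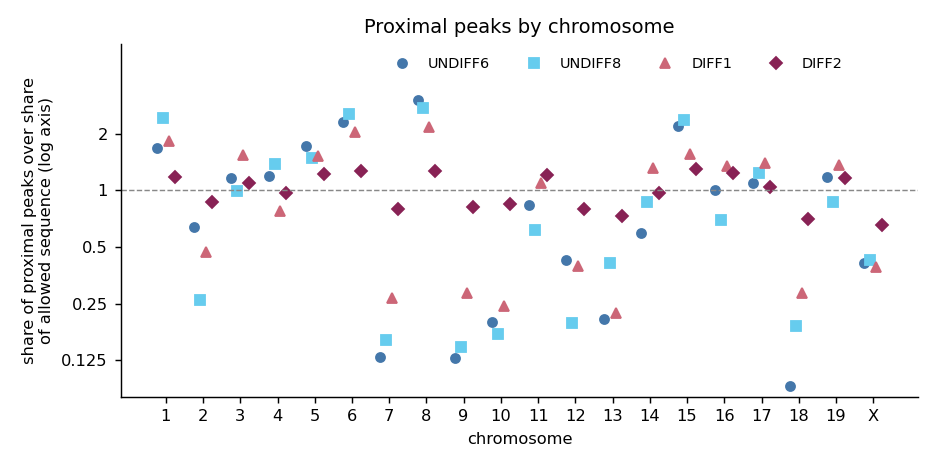
Share of each list's proximal noncoding peaks on a chromosome divided by that chromosome's share of the allowed sequence (log axis, dashed line at 1), with 1 point per list and chromosome, Y left out. Chromosomes 6, 8 and 15 lie above the line and 7, 9 and 10 below it in the 4 lists, with DIFF2 nearest to the line on chromosomes 7, 8 and 9.

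The E-box was no more frequent in proximal peaks than in proximal sequence as a whole. CACGTG, which reads the same on both strands, was found in 18 of 835 proximal peaks of UNDIFF6 (2.16%, Wilson 95% interval 1.37 to 3.38), 7 of 603 of UNDIFF8 (1.16%, 0.563 to 2.38), 45 of 1881 of DIFF1 (2.39%, 1.79 to 3.19) and 894 of 28097 of DIFF2 (3.18%, 2.98 to 3.39). Windows of the same width laid over all proximal sequence held it in 2.22%, 2.61%, 2.45% and 3.85% of cases, where the share grows with the width of the list's peaks. The intervals of UNDIFF8 and DIFF2 lay below the share of windows and those of UNDIFF6 and DIFF1 included it. The other peaks of the lists held the E-box in 2.12%, 1.5%, 1.95% and 2.56% of cases. Proximal minus other peaks was 0.033 points in UNDIFF6, -0.34 in UNDIFF8, 0.44 in DIFF1 and 0.62 in DIFF2, a mean of 0.19 ± 0.43 (SD, n = 4; exact sign-flip permutation test p = 0.375, adjusted 0.656), and 0.046 without DIFF2.

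In DIFF2 the E-box share differed with soft-masking, which was read at the centre of each peak alone. Of the 4269 proximal DIFF2 peaks outside soft-masked sequence, 4.66% (4.07 to 5.34) held CACGTG, against 2.92% (2.71 to 3.14) of the 23828 within it. The first lay above and the second below the 3.85% of windows. Those windows covered masked and unmasked proximal sequence together, so they are not a matched level for either. Peaks centred outside soft-masked sequence were not free of repeats. A run of 10 or more CA units was in 30.8% of those 4269 peaks, against 17.9% of the 23828. The other DIFF2 peaks held CACGTG in 4.14% and 2.31% of cases on the same split. The E-box was found at 3.12% upstream and 3.24% downstream in DIFF2. CACGTT, an imperfect E-box searched on both strands, was found in 1.68% of proximal peaks in UNDIFF6, 3.48% in UNDIFF8, 2.23% in DIFF1 and 2.12% in DIFF2, against 2.23%, 2.61%, 2.46% and 3.87% of windows.

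For letters bound by factors that act downstream of the lactogenic hormones, the intervals of UNDIFF6, UNDIFF8 and DIFF1 included the share of windows. Those of DIFF2 lay below it. TTCNNNGAA, the core that STAT5 recognises once prolactin has activated it, was in 6.83% (5.31 to 8.74) of proximal UNDIFF6 peaks and 9.12% (7.07 to 11.7) of UNDIFF8. It was in 7.87% (6.74 to 9.17) of DIFF1 and 7.91% (7.6 to 8.23) of DIFF2. The windows held it in 6.36%, 7.46%, 7.01% and 10.9% of cases in the same order. GNACANNNTGTNC, the palindrome of the glucocorticoid receptor, which dexamethasone activates, was in 3 of 835, 2 of 603, 10 of 1881 and 125 of 28097 proximal peaks. In DIFF1 that was 0.532% (0.289 to 0.976) against 0.354% of windows, and the 10 peaks were 8 upstream and 2 downstream. In DIFF2 it was 0.445% (0.374 to 0.53) against 0.565% of windows, with 59 upstream and 66 downstream.

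Letters typical of repeats separated DIFF2 from the other lists, and proximal DIFF2 peaks from the rest of their list. TCCCAGCA on either strand, an 8 base word found in the B1 family of short interspersed elements, was in 37.9% (37.3 to 38.5) of proximal DIFF2 peaks against 18.7% of its other peaks and 9.52% of proximal windows. B1 elements are known to be dense near genes, and in these windows too the word was more frequent in proximal than in other sequence (4.76%). It was in 3.59% of proximal peaks of UNDIFF6, 4.31% of UNDIFF8 and 4.84% of DIFF1, each below the 5.65%, 6.6% and 6.21% of windows. Runs of 10 or more CA units, on either strand, were in 19.8% of proximal DIFF2 peaks and 22.3% of its other peaks, against 3.6% of proximal windows and 0.663 to 1.22% of proximal peaks in the other lists. The words were chosen after earlier results had been seen.

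**Figure D4:**
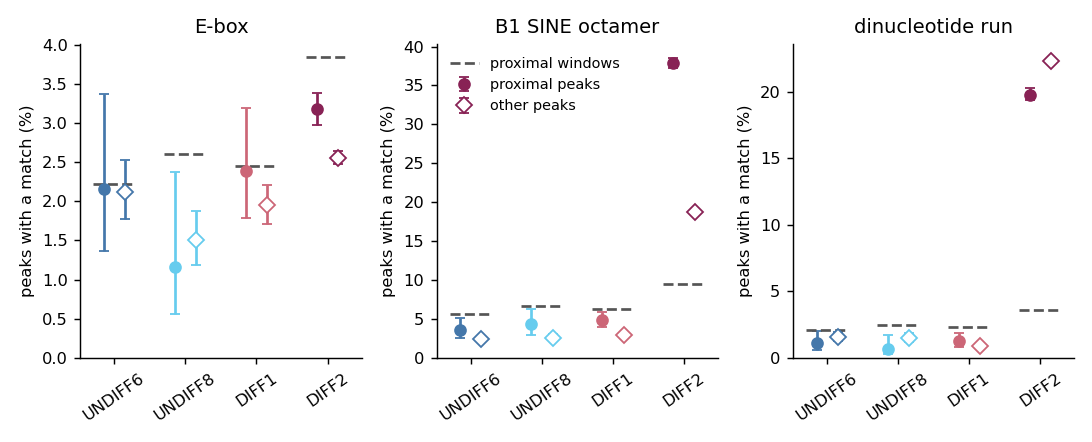
Percentage of peaks with a match to the E-box, to the B1 SINE octamer and to the dinucleotide run, for proximal peaks (filled) and the other peaks (open) of each list, with Wilson 95% intervals, and dashed lines for windows of the same width over all proximal sequence. In DIFF2 the octamer reached 37.9% in proximal and 18.7% in other peaks, and the E-box of DIFF2 lay below its dashed line at 3.85%.

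Few proximal peaks were called at the same place in different cultures. UNDIFF6 and UNDIFF8 shared 13 proximal sites by an overlap of at least 1 bp, which were 1.56% of the 835 proximal UNDIFF6 peaks and 2.16% of the 603 proximal UNDIFF8 peaks. Over all peaks the shares were 1.45% and 1.74%. DIFF1 and DIFF2 shared 97 pairs of proximal peaks. Of the proximal DIFF1 peaks 5.21% overlapped a DIFF2 peak, against 5.71% of all DIFF1 peaks, and of the proximal DIFF2 peaks 0.349% overlapped a DIFF1 peak, against 0.421% of all. These shares stood near those of all peaks.

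Pairs across the states are given with the share over all peaks in brackets. Of the proximal UNDIFF6 peaks 0.719% overlapped a DIFF1 peak (0.597% of all UNDIFF6 peaks) and 5.87% a DIFF2 peak (5.54% of all). Of the proximal UNDIFF8 peaks 1.16% overlapped a DIFF1 peak (0.913% of all) and 6.97% a DIFF2 peak (8.75% of all). In the opposite direction 0.319% of proximal DIFF1 peaks overlapped an UNDIFF6 peak (0.285% of all) and 0.425% an UNDIFF8 peak (0.365% of all). Of the proximal DIFF2 peaks 0.182% overlapped an UNDIFF6 peak (0.195% of all) and 0.149% an UNDIFF8 peak (0.258% of all).

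**Figure D5:**
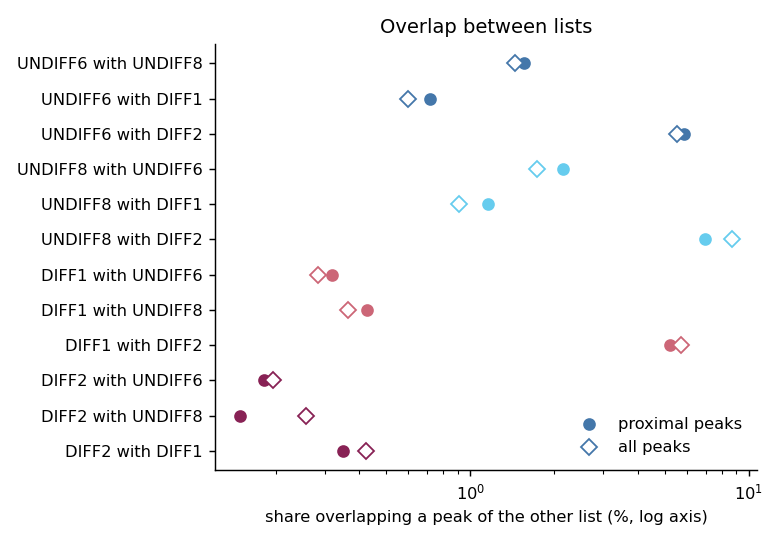
Share of peaks that overlapped a peak of the other list by at least 1 bp (log axis, percent), for proximal noncoding peaks (filled) and all peaks (open), in each of the 12 ordered pairs of lists. Filled and open points lie near each other, as at 1.56% and 1.45% for UNDIFF6 with UNDIFF8, and the largest shares are those of UNDIFF lists and DIFF1 with the long DIFF2 list.

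Joined together, the overlapping proximal peaks formed 201 sites, of which 195 were called in 2 lists and 6 in 3 lists, and 0 in all 4. At 172 sites at least 1 of the peaks was centred in soft-masked sequence. Most sites included a DIFF2 peak, and 84.8% of all proximal DIFF2 peaks were soft-masked. Of the 29 other sites, 12 were shared by DIFF1 and DIFF2 and 5 by UNDIFF6 and UNDIFF8 alone. A CACGTG was present in a peak at 8 of the 201 sites. Over all proximal peaks it was in 1.16% (UNDIFF8) to 3.18% (DIFF2) of a list. Each site joins at least 2 peaks, so the count and these shares are not like for like.

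Ranked by the smaller fold, the first of the 29 sites with peaks centred outside soft-masked sequence lay 5.39 kb upstream of Vmn1r30. It had a fold of 4.89 in UNDIFF6, with 22 ChIP and 4.5 input tags, and 11.8 in DIFF2. The next was 3.56 kb upstream of Mir3105, a microRNA gene, with 5.52 in DIFF1 and 4.68 in DIFF2. The site near Ldb2, a cofactor of LIM homeodomain factors, lay 5.59 kb upstream, with 5.31 in UNDIFF6 and 4.35 in DIFF2. Upstream sites thus led the ranking. Samhd1, a hydrolase of deoxynucleotides, followed with a site 7.09 kb upstream at 5.63 in DIFF1 and 4.09 in DIFF2.

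Intronic sites came next. The Srgap2 site lay 9.80 kb downstream of a start, in intron 2 of 22, with a fold of 3.98 in DIFF1 and 7.59 in DIFF2, and the DIFF1 peak lay wholly inside the DIFF2 peak. The Abca6 site, in intron 4 of 7 of this lipid transporter gene, had 15.9 in UNDIFF8 and 3.43 in DIFF2 but shared only 18 bases. The Mapk14 site lay 4.98 kb downstream in intron 1 of 11, with 3.38 in DIFF1 and 5.94 in DIFF2 and 214 shared bases. The sites near Vmn2r129 (3.42 in DIFF1 and 10.1 in DIFF2) and Adam20 (3.38 and 15.4), a metalloprotease gene, were intergenic. Although centred outside soft-masked sequence, the Vmn2r129 peaks were soft-masked over 74.4% of their width in DIFF1 and 67.1% in DIFF2.

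The Zfp981 site was the first that the UNDIFF pair shared. It lay 7.65 kb upstream with a fold of 3.4 in UNDIFF6 (45.9 ChIP and 13.5 input tags) and 6.09 in UNDIFF8 (53 and 8.7 tags). Zfp981 had 3 proximal peaks in UNDIFF6 and 4 in UNDIFF8. Zfp981, Vmn1r30 and Vmn2r129 belong to large gene families with near-identical copies. How reads that match several copies were placed was not stated in the sources read, so these sites are uncertain.

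Each of the 6 sites called in 3 lists had at least 1 peak centred in soft-masked sequence. The site in intron 1 of C130026I21Rik, 6.58 kb downstream, was called in UNDIFF6 with 90.8 ChIP and 44.5 input tags (fold 2.04), in UNDIFF8 with 95 and 41.6 (2.29) and in DIFF1 with 65.6 and 32.5 (2.02). Its input was thus several times the list medians of 7, 6.3 and 4 tags. The site in 6820431F20Rik had folds of 2.41 in UNDIFF6, 5.83 in UNDIFF8 and 12.8 in DIFF2, and each of its peaks held a CACGTG. The others were near Cyp3a41b, Gm20319, 4930467E23Rik and Gm38510.

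Proximal peaks named 795 genes in UNDIFF6, 531 in UNDIFF8, 1759 in DIFF1 and 15555 in DIFF2 as the nearest gene. That is 3.04%, 2.03%, 6.72% and 59.4% of the 26180 curated genes. In DIFF2, 48.6% of these genes had several proximal peaks, up to 12 at Ncald, which encodes a neuronal calcium sensor, against 4.78 to 9.79% in the other lists. A total of 15 of the 26180 curated genes had a proximal peak in every list. Rev1 and Ccn3, named after their values had been seen, had one in all lists but DIFF2.

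Klf14, a Krüppel-like transcription factor gene, had the highest of the smallest folds. UNDIFF6 had peaks 9.41 kb downstream (fold 3.74) and 8.60 kb upstream (5.97), UNDIFF8 had one 5.40 kb downstream (55.9, over 0.5 input tags) and DIFF1 one 5.52 kb downstream (7.42). DIFF2 had peaks 9.24 and 8.15 kb downstream (25.4 and 14.8) and 4.82 kb upstream (3.4). The UNDIFF8 and DIFF1 peaks overlapped, and so did the first UNDIFF6 and DIFF2 peaks, so 2 of the places were shared and the rest were apart.

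Tnfrsf11b, which encodes the decoy receptor osteoprotegerin, had folds of 3.31 in UNDIFF6, 9.48 in UNDIFF8, 4.31 in DIFF1 and up to 9.48 in DIFF2, at places 1.13 to 9.48 kb from the start. Nrg1, an ErbB receptor ligand made in the mammary gland, had a site in intron 5 of 12 shared by UNDIFF6 (2.87) and UNDIFF8 (3.45). Both peaks there were centred outside soft-masked sequence. The Nrg1 peaks in DIFF1 (up to 4.39) and DIFF2 (4.23) lay elsewhere. Slc39a10, a zinc importer, reached 2.98, 3.7, 30.5 and 4.93 in UNDIFF6, UNDIFF8, DIFF1 and DIFF2, all at different places. The 30.5 rested on 15.2 ChIP and 0.5 input tags, the lowest input in DIFF1. For most of these genes the lists thus named the same gene from different places. How many genes the sizes of the lists alone would bring into every list was not tested.

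The remaining genes with a proximal peak in every list were Ncald, Sybu (a kinesin adaptor), Ankib1 (a ubiquitin ligase), Laptm4b (a lysosomal membrane protein), Tcaf1 (a partner of a cold channel), Gm10874, Ifi203 (an interferon response gene), Mup16 (a major urinary protein), Speer4a, Vmn2r111 and C130026I21Rik. The smallest of each gene's highest folds per list ran from 2.02 at C130026I21Rik to 2.96 at Vmn2r111. Apart from Mup16, on chromosome 4, the genes with a proximal peak in every list lie on chromosomes 1, 5, 6, 8, 15 and 17. These chromosomes were above their share of proximal peaks in every list.

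Outside DIFF2, few clock genes had a proximal peak, as held for genes in general. Of the 16 core clock genes, UNDIFF6 had 0, UNDIFF8 had 1 and DIFF1 had 1 (6.25% each), against 3.04%, 2.03% and 6.72% of all genes, and DIFF2 had 11 (68.8% against 59.4%). The UNDIFF8 peak lay in intron 1 of Csnk1d, the kinase that marks PER proteins, 5.6 kb downstream, with 60 ChIP and 27.1 input tags (fold 2.22). The DIFF1 peak lay 8.85 kb upstream of Nr1d1, which encodes the repressor REV-ERBα, with 16.9 and 4.5 tags (fold 3.76). Among 10 clock output genes, only Tef, a PAR bZIP factor gene, had a peak outside DIFF2, in its intron 2 in DIFF1 (fold 3.81), and DIFF2 had 6 of the 10 (60% against 59.4%). In DIFF2, peaks lay 4.8 kb upstream of Per1 (fold 6.85) and 2 kb upstream of Per2 (4.21), and both were centred in soft-masked sequence. No proximal peak near a core clock or clock output gene held CACGTG. Most of these peaks were from DIFF2, where 3.18% of all proximal peaks held it, so an absence among so few says little.

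Milk protein genes had no proximal peak in UNDIFF6, UNDIFF8 or DIFF1, where 3.04%, 2.03% and 6.72% of all genes had one. With 13 genes, an absence at such shares says little. In DIFF2, 11 of the 13 had one (84.6% against 59.4% of all genes). That too rests on few genes, and the casein genes among them lie close together on chromosome 5. This chromosome held 1.22 times its share of proximal DIFF2 peaks. Examples in DIFF2 were Lalba, which encodes α-lactalbumin, with peaks 8.94 and 4.59 kb downstream (fold 14.7 and 3.31), Csn1s1, an α-casein gene, in intron 3 (10.5), and Ltf, lactoferrin, 4.71 kb upstream (30, over 1 input tag). Of 29 annotated milk fat and lipid genes, UNDIFF6 had 3, UNDIFF8 had 1, DIFF1 had 2 and DIFF2 had 20. These were 10.3%, 3.45%, 6.9% and 69% of the list, against 3.04%, 2.03%, 6.72% and 59.4% of all genes. The UNDIFF6 peaks were near Insig1, which holds back SREBP (8.12 kb upstream, fold 3.5), Pparg, the adipogenic receptor (intron 2, 6.14), and its coactivator gene Ppargc1a (intron 1, 3.28). UNDIFF8 had Mid1ip1, an activator of acetyl-CoA carboxylase (10.1). DIFF1 had Srebf2, the regulator of sterol synthesis (intron 1, 5.85), and Plin5, a lipid droplet protein (3.68). Pparg, Ppargc1a, Mid1ip1 and Srebf2 also had a proximal peak in DIFF2, as did 59.4% of all genes. Their DIFF2 peaks did not overlap the peaks just named.

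In the prolactin, growth hormone and insulin pathway, 2 of 20 genes had a proximal peak in DIFF1, 0 in either UNDIFF list and 13 in DIFF2. That was 10% in DIFF1 and 65% in DIFF2, against 6.72% and 59.4% of all genes. In UNDIFF6 and UNDIFF8 only 3.04% and 2.03% of all genes had one. The DIFF1 peaks lay 6.96 kb upstream of Prlr, the prolactin receptor (19.9 ChIP and 5.5 input tags, fold 3.61, soft-masked over its whole width), and 1.1 kb upstream of Socs3, the feedback inhibitor (16.6 and 3.5 tags, fold 4.73). The Socs3 peak held the E-box printed above. The E-box peak of DIFF2 lay 8.95 kb upstream of Stat3 with 17 ChIP and 5.2 input tags (fold 3.29). In DIFF2, Stat5a, the main target of prolactin signalling, had a peak in intron 5 (fold 11) and Insr one in intron 1 (6.85).

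Of 23 mammary epithelial lineage genes, UNDIFF6 had 2, UNDIFF8 had 1, DIFF1 had 2 and DIFF2 had 14. These were 8.7%, 4.35%, 8.7% and 60.9% of the list, against 3.04%, 2.03%, 6.72% and 59.4% of all genes. UNDIFF6 had Esr1, the estrogen receptor (intron 1, fold 3.07), and Areg, an EGF receptor ligand (9.93 kb downstream, 8.79). UNDIFF8 had Epcam, an epithelial adhesion protein (intron 6, 3.47). DIFF1 had Trp63, which marks basal cells (intron 3, 6.49), and Erbb4, a neuregulin receptor (2.9 kb upstream, 3.09). Of 15 cell cycle genes, Cdk6 (UNDIFF6, 3.02) and Ccnd3 (UNDIFF8, 2.61) had one outside DIFF2, and DIFF2 had 8 (53.3%, below the 59.4% of all genes). Of 18 antioxidant genes, the peroxiredoxins Prdx3 (UNDIFF8, 4.05) and Prdx6 (DIFF1, 6.3) had one, and DIFF2 had 8 (44.4%, also below 59.4%). A single gene was 6.67% of the cell cycle list and 5.56% of the antioxidant list, against 2.03 to 6.72% of all genes in these 3 lists of peaks.

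Cadherin and Wnt genes had the largest counts of the 9 lists outside DIFF2, at 4 of 25 in UNDIFF8 and 4 in DIFF1. That was 16% each, against 2.03% and 6.72% of all genes. UNDIFF6 had 0, against 3.04% of all genes, and DIFF2 had 18 (72% against 59.4%). The study singled out cadherins, Wnt2 and Fzd1 from these samples, so the count is not independent of its choice. UNDIFF8 had Cdh10, with peaks 9.53 kb upstream (10.8) and 2.92 kb downstream (8.62), Cdh12 (1.11 kb upstream, 8.11), Wnt2 (intron 2, 3.1) and the Wnt receptor gene Fzd1 (8.32 kb upstream, 3.51). DIFF1 had Cdh5, the endothelial cadherin (intron 1, 6.3), Cdh6 with peaks 8.81 and 9.32 kb upstream (4.31 and 3.08), Cdh7 (5.3) and Cdh11 (intron 1, 3.91). All the genes named here lie on chromosomes 1, 5, 6, 8 and 15, which were above their share of proximal peaks in every list. The shares of all genes take no account of chromosome.

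The proximal peaks with the highest findPeaks scores had high input as well. In UNDIFF6 they were 9.58 and 8.77 kb upstream of Ccl28, a mucosal chemokine gene (fold 2.06 and 2.21 over 44.5 and 37 input tags), in C130026I21Rik, and in intron 1 of Fbxl18, an F-box protein (2.05 over 41). In UNDIFF8 they were near Itln1, an intelectin (4.18 over 24.6), Gm38510 (3.66 over 21.7), E030030I06Rik (3.14 over 60.9) and C130026I21Rik. In DIFF1 they were near Gm3404 (2.07 over 20.5), Nxpe5 (2.14 over 17.5), Pisd-ps2 (2.58 over 49.5) and C130026I21Rik. In DIFF2 they were upstream and downstream of starts of Sfi1, a centriole protein (2.95 over 192 and 2.17 over 195), near C130026I21Rik (2.51 over 55.9) and near Mir101c (10.6 over 19.5). Except at Mir101c the fold was at most 4.18. These peaks were picked by score, and how score went with input over whole lists was not tested.

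The first proximal peaks with an E-box were ranked by fold over input, which favours low input, in all lists but DIFF2. In UNDIFF6 they were 9.04 kb upstream of Gdf6 (21.5 ChIP and 3 input tags, fold 7.17), near Mir6362 (5.74) and near Wbp2 (5.5). In UNDIFF8 they lay in intron 6 of Slc38a4 (23.5 and 3.4 tags, fold 6.95), in 6820431F20Rik and in Gm8126 (5.81). In DIFF1 they lay in intron 2 of Cd209c (14.9 and 0.5 tags, fold 29.8), 3.88 kb upstream of Golga7 (16.2 and 1.5, 10.8) and 5.05 kb downstream of Tmem235 (8.95). In DIFF2, ranked by score, they were in 6820431F20Rik (12.8), in intron 1 of Flt1 (90 ChIP and 13.5 input tags, fold 6.69), near Micall2 (3.43), in intron 2 of Atpsckmt (3.28) and near Oxgr1 (3.05). Only 6820431F20Rik came up in more than 1 of these rankings.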

How the data were processed

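BMAL1 ChIP-seq was done on 2 UNDIFF and 2 DIFF cultures of HC11 cells. Read quality was examined by the authors in FastQC 0.11.7. After Fastx trimming, Bowtie2 2.2.9 placed the reads on GRCm38, and HOMER 4.10 called each culture's peaks against the matching input. Of the DIFF2 pair only a portion of the reads was used. The deposited lists give a findPeaks score, the tag signal of ChIP and of input, the focus ratio (a fraction of tags on the expected strand), fold over input and a Poisson p-value that is not adjusted. In the deposited values the lowest fold was 2 and the largest p-value over input 9.93e-05. The tags of ChIP or input were scaled by the authors to the smaller library.

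Peak centres were placed against RefSeq annotation release 108.20200622. Sequence and start sites are those of GRCm38. Density is peaks per Mb of sequence that met the same distance and exon rule. Shares carry Wilson 95% intervals, which cover counting error only. States were compared by an exact two-sided permutation test over the 4 cultures, and paired quantities by exact sign flips over the 4 lists, adjusted by Benjamini-Hochberg over the 7 tests. Overlap meant at least 1 bp. The computations used bedtools 2.31.1, scipy 1.17.1, matplotlib 3.10.9, pandas 2.3.3 and numpy 2.4.6 under Python 3.11.15, and were tested on simulated data.

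The members, gene lists and motifs were chosen with earlier results of these data known. Named were the first 10 overlapping sites by the smaller fold, soft-masked sequence last, genes with a peak in every list, the 2 highest scores on each side in each list, the first E-box peaks by fold (by score in DIFF2), and members of 9 gene lists (169 of 170 genes annotated). For the gene lists, further DIFF2 peaks were named by score. The alternatives were other distance limits, transcript sets, fold limits, list sizes, overlap rules, soft-masked sequence and left-out cultures. The use of soft-masked peaks alone and the weighting by chromosome were chosen after seeing the data.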

Additional observations from a re-analysis of the deposited data

Results flagged for a closer look

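The share of proximal peaks centred in soft-masked sequence, upstream minus downstream, had opposite signs in the states. It was -1.36 points in UNDIFF6 and -3.88 in UNDIFF8, a mean of -2.62, and 4.10 points in DIFF1 and 0.51 in DIFF2, a mean of 2.30. The difference between the means was 4.92 points, with an exact two-sided permutation test p = 0.333, the smallest that 2 cultures against 2 allow.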

How the results depend on the processing

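Of 145 values under an alternative, 108 kept their direction or stayed near the main value, 15 reversed and 22 counts moved by more than 1.5 times. The proximal share (DIFF minus UNDIFF, 1.26 to 4.54 points) and the median fold (-0.13 to -0.051) kept their sign under every alternative run. The upstream share, DIFF minus UNDIFF, reversed to -1.03 with protein coding transcripts alone, -0.39 with a 20 kb outer limit and -1.61 outside soft-masked sequence, was 5.28 with soft-masked peaks alone, and ran from -1.12 to 1.81 with 1 culture left out. With soft-masked peaks alone, the log2 density upstream over downstream was -0.18 and that of proximal over other peaks 0.039, and the latter ran from -0.17 to 0.0058 with 1 culture left out. The soft-masked share, upstream minus downstream, became 0.29 with predicted transcripts, 0.42 with a 5 kb outer limit, 0.56 with a 2 kb inner limit, 1.23 at a fold of at least 4 and 0.63 with equal list sizes, and ran from -1.58 to 1.08 with 1 culture left out. The E-box difference was -0.15 with the 5 kb limit, 0.49 in soft-masked peaks, 0.063 outside them and 0.39 with CACGTT added, and ran from 0.046 to 0.37 with 1 culture left out (without UNDIFF8 the highest).

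The UNDIFF pair shared 13 proximal sites, 2 with the 5 kb limit, 25 with 20 kb, 0 at a fold of at least 4, 6 outside soft-masked sequence and 5 within it. The DIFF pair shared 97, 45 with 5 kb, 162 with 20 kb, 22 at a fold of at least 4, 5 with equal list sizes, 12 outside soft-masked sequence, 49 within it and 61 with an overlap of at least 50% of the shorter peak. Genes in every list numbered 15, 39 with predicted transcripts, 1 with 5 kb, 71 with 20 kb, 1 at a fold of at least 4, 5 with equal list sizes, 3 outside soft-masked sequence, 0 within it and 17 to 94 with 1 culture left out. Causes of the reversals were not tested. No paired analysis was possible because the UNDIFF and DIFF cultures share no replicate numbers. A design of 2 against 2 cannot give p below 0.333.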
